A study of Homo sapiens with 5 samples.

Results

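The effect of ACY1215 on the transcriptome was described in TOV21G, an established human cell line derived from ovarian clear cell carcinoma, by setting the library of ACY1215-treated cells against the library of vehicle-treated cells. Of 28442 gene rows in the deposited table, 11046 had at least 5 CPM (counts normalised for sequencing depth with the TMM factors of edgeR) in 1 of these 2 libraries and entered the comparison. Of these genes 10406 reached 5 CPM in both libraries, 354 in ACY1215 only and 286 in vehicle only. A gene that reached 5 CPM in 1 library alone is by construction lower in the other, so counts are also given for genes that reached 5 CPM in a library outside the ratio.

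The series asks how transcription responds when HDAC6 activity is altered, in ovarian cancer with mutated ARID1A as its setting. All 5 libraries are of TOV21G cells, 1 per treatment: ACY1215, CAY10603 (a second HDAC6 inhibitor), the drug vehicle, a control hairpin (shControl) and a hairpin against HDAC6 (shHDAC6). The hairpins were delivered by virus with puromycin selection, the protocol names 2 HDAC6 hairpins without saying which was sequenced, and the vehicle column is headed DMSO. No dose or exposure time is given in the sources used here. Because each treatment has 1 library, no difference has a replicate check and none carries a p-value. Bracketed intervals are exact binomial intervals of a ratio at 95% and cover counting error only, not the spread between cultures.

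ACY1215, also called ricolinostat, is a hydroxamate that binds the zinc in the catalytic pocket of class I and II histone deacetylases and inhibits HDAC6 at lower concentrations than the nuclear enzymes. HDAC6 is mostly cytoplasmic and removes acetyl groups from alpha-tubulin, cortactin and HSP90, whereas HDAC1, HDAC2 and HDAC3 act on histones in transcriptional corepressor complexes. Broad deacetylase inhibitors are known to slow cell division and to raise genes that corepressors keep silent, among them many neuronal genes.

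Total counts in the 5 libraries ranged from 43498805 (vehicle) to 57442767 (shControl), with 54620960 in ACY1215, so that 5 CPM stood for 227 reads in vehicle and 263 in ACY1215. Defining markers of leukocytes, endothelium and erythroid cells were all under 5 CPM in both libraries, with summed levels of 4.34, 0.617 and 0.154 CPM in vehicle and 4.76, 0.286 and 0.0190 CPM in ACY1215. Fibroblast markers summed to 26 CPM in vehicle and 37.3 CPM in ACY1215 (25.0 to 36.6 CPM in the other 3 libraries), with 1 of 6 (COL1A2) at 5 CPM, and their part in the results on matrix genes was not tested. Of 8 markers of clear cell carcinoma and epithelium, 6 were at 5 CPM, among them PAX8, KRT8 and KRT18. Scaling by total counts instead of TMM moved the ratio of every gene by -0.12 on the log2 scale, so the values that follow are relative to that choice.

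At least 2-fold differences were found for 628 genes, or 5.69% of those compared. Of these, 286 were higher in ACY1215 (2.59%) and 342 lower (3.1%), around a median log2 ratio of 0.02 over all 11046 genes. At any size 52.3% of the genes were higher and 47.7% lower. The distribution was not symmetric: 52 genes were at least 4-fold higher and 2 at least 4-fold lower, and 15 genes were at least 8-fold higher and 0 at least 8-fold lower. The higher genes were mostly scarce, with a median of 5.20 CPM in vehicle and 14.8 CPM in ACY1215, and 139 of the 286 reached 5 CPM in ACY1215 and not in vehicle. The lower genes were more abundant, with a median of 34.5 CPM in vehicle and 14 CPM in ACY1215, and 79 of the 342 reached 5 CPM in vehicle only. Among the 10573 genes that also reached 5 CPM in shControl, 173 were at least 2-fold higher (1.64%) and 287 at least 2-fold lower (2.71%). The lower genes spread over all levels, from 4.65% of genes with a mean under 10 CPM to 2.29% of genes over 200 CPM, while the higher genes made up 8.39% of the former class, 0.842% of genes between 50 and 200 CPM and 2.29% of genes over 200 CPM. In bulk RNA fewer cells of a kind and less RNA per cell cannot be told apart.

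**Figure D1:**
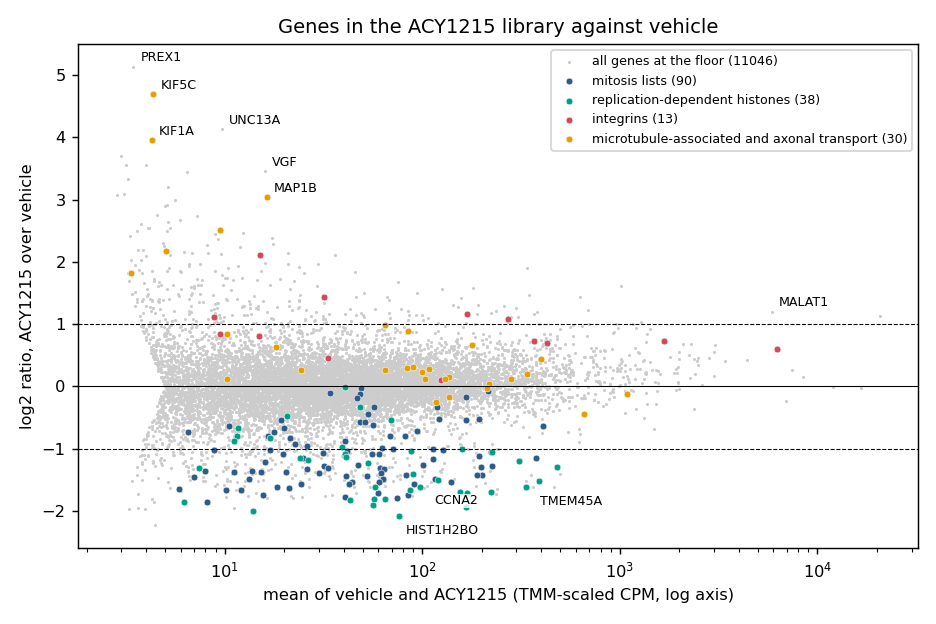
Each point is 1 of 11046 genes, placed by the mean TMM-scaled CPM of vehicle and ACY1215 (log axis) and by the log2 ratio of ACY1215 over vehicle, with 1 library a side; dashed lines mark 2-fold. The mitosis and histone genes lie below 0, the 13 integrins above it, and the farthest points are scarce genes such as PREX1 and KIF5C.

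The other libraries place these differences. Of the 5775 genes higher than in vehicle the ACY1215 library lay above all other 4 libraries for 50.7%, and of the 5269 lower genes it lay below all other 4 for 63.6%. For the 286 higher genes it was above the other 4 in 275, and for the 342 lower genes it was below them in 276. These genes were chosen by their ratio to vehicle, which itself favours an outer place for ACY1215. Over all 11046 genes ACY1215 lay above the other 4 for 26.5% and below them for 30.3%. Vehicle lay outside the other 4 libraries on the opposite side for 139 of the higher and 162 of the lower genes. With shControl in place of vehicle 163 of the 286 genes were still at least 2-fold higher, and 77 of the 342 still at least 2-fold lower. By the same rule CAY10603 against the same vehicle gave 3 genes higher (0.0277%) and 28 lower (0.259%) at 2-fold, and shControl against vehicle 79 higher (0.724%) and 119 lower (1.09%). Both inhibitors were compared with 1 vehicle library, and 28 of the 342 lower genes were also at least 2-fold lower in CAY10603.

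HDAC6 itself stood at 50.1 CPM in vehicle, 32.9 in ACY1215, 47.9 in CAY10603, 49.0 in shControl and 29.3 in shHDAC6. Its transcript was thus lower in ACY1215 by -0.60 on the log2 scale (-0.70 to -0.51) and about as low as in the hairpin library, although an inhibitor acts on the protein and the transcript does not measure its effect. Of the other 14 HDAC and sirtuin genes at 5 CPM 0 were past 2-fold (5.69% of all genes), with ratios from -0.47 to 0.30. At that share few or none of 14 genes would be past 2-fold. HDAC3, the deacetylase of the NCoR corepressor, had 0.30 (0.22 to 0.39), HDAC2 had 0.25 (0.21 to 0.29), HDAC1 had -0.04 (-0.08 to 0.00) and the nuclear deacetylase SIRT1 had -0.47 (-0.55 to -0.40).

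Among the genes compared, the largest differences belonged to genes under 5 CPM in vehicle, many of them known from neurons and from secretory cells. PREX1, an exchange factor for the GTPase Rac, had 7 counts in vehicle and 354 in ACY1215, which is 0.154 and 6.74 CPM, and 0.267, 0.266 and 0.191 CPM in CAY10603, shControl and shHDAC6. KIF5C, the neuronal heavy chain of conventional kinesin, stood at 0.286 CPM in vehicle, 8.40 in ACY1215, 0.308 in CAY10603, 0.213 in shControl and 0.229 in shHDAC6. ACY1215 was the single high library for both, and the log2 ratios to vehicle were 5.13 (4.39 to 6.78) for PREX1 and 4.70 (4.09 to 5.80) for KIF5C. UNC13A, which primes synaptic vesicles for release, stood at 1.01 CPM in vehicle, 18.4 in ACY1215, 1.67 in CAY10603, 0.975 in shControl and 1.05 in shHDAC6. KIF1A, the motor that carries synaptic vesicle precursors along axons, stood at 0.484 CPM in vehicle, 8.05 in ACY1215, 0.658 in CAY10603, 0.674 in shControl and 0.534 in shHDAC6. Their log2 ratios were 4.13 (3.75 to 4.64) and 3.95 (3.44 to 4.75). The 15 genes at 8-fold or more also included TMEM59L, TSPAN13, the neuroendocrine peptide precursor VGF, the tight junction protein CGN, the cyclooxygenase PTGS1, the membrane skeleton protein ADD2, FAM105A, the sulfotransferase UST, the microtubule-associated protein MAP1B and CLUL1, with log2 ratios from 3.0 (CLUL1) to 3.69 (TMEM59L). All 15 reached 5 CPM in ACY1215 and not in vehicle, and were highest in ACY1215 among the 5 libraries. In the authors' FPKM, on the log2(FPKM + 0.1) scale, PREX1 had 3.09 and KIF5C 2.70, because their vehicle values (0.03 and 0.10) lie at or under the pseudocount.

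**Figure D2:**
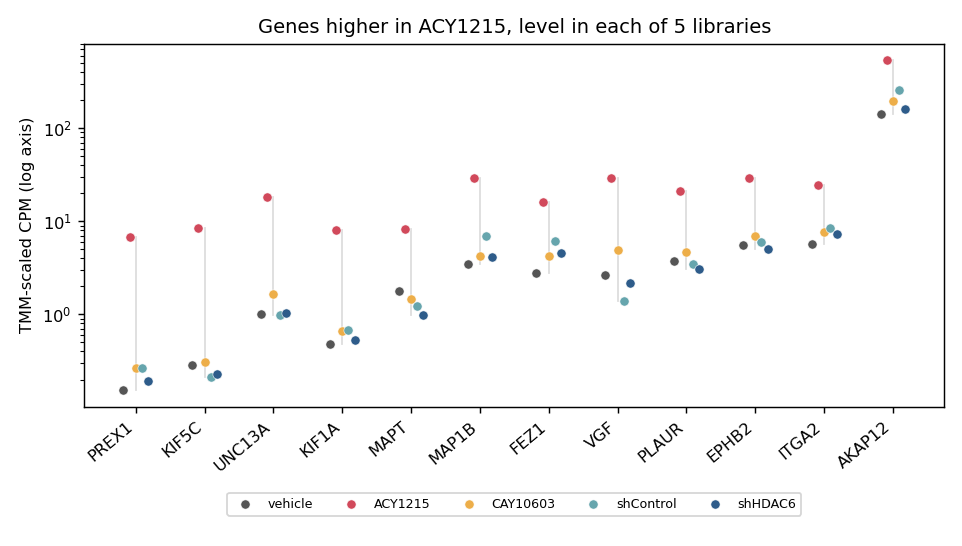
TMM-scaled CPM (log axis) of 12 genes in each of the 5 libraries, 1 point a library; levels are to be compared within a gene. The ACY1215 point is the highest for each gene, and the other 4 libraries range from 0.154 to 0.267 CPM for PREX1 and from 142 to 255 CPM for AKAP12.

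Genes of microtubule-based transport were mostly higher by small ratios, with 6 large ones among genes scarce in vehicle. Of 41 listed microtubule-associated and axonal transport genes 30 were at 5 CPM, of which 25 were higher (52.3% of all genes) and 6 at least 2-fold (2.59% of all genes), with a median log2 ratio of 0.27. With shControl in place of vehicle the median of this list turned to -0.02. The 6 were KIF5C and KIF1A, MAP1B at 3.04 (2.82 to 3.30), the axonal adaptor FEZ1 at 2.52 (2.27 to 2.82), the neuronal microtubule protein tau, MAPT, at 2.17 (1.85 to 2.56), and the plus-end binding protein MAPRE3 at 1.83 (1.46 to 2.26). All 6 reached 5 CPM in ACY1215 and not in vehicle, so the count of the family past 2-fold rests on the floor, and 0 members above it in both libraries passed 2-fold. KIF5B, the kinesin heavy chain of most tissues and named here after its values were seen, had 1138 CPM in vehicle and 1044 in ACY1215, a ratio of -0.12, and the microtubule destabiliser STMN1 had -0.44 (-0.46 to -0.41). Tubulins, whose alpha subunits are substrates of HDAC6, were split: 7 of 15 were higher, led by the neuronal beta-tubulins TUBB2B at 1.38 (1.30 to 1.46) and TUBB3 at 0.85 (0.81 to 0.89), while TUBA1B, a general alpha-tubulin, had -0.89 (-0.92 to -0.87). TUBB2B stood at 37.5 CPM in vehicle, 97.9 in ACY1215, 40.6 in CAY10603, 47.7 in shControl and 38.2 in shHDAC6. TUBB3 was higher in shControl (372 CPM) than in ACY1215 (318 CPM).

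Neuronal lineage genes were mostly higher, and genes of regulated secretion went both ways. Of 33 neuronal lineage genes 17 were at 5 CPM, 15 of them higher (52.3% of all genes) and 5 at least 2-fold (2.59%), with a median of 0.71. Of the 17, 3 reached 5 CPM in ACY1215 and not in vehicle, all 3 among the 5 at 2-fold, and the median was 0.36 against shControl. Among the 14 that also reached 5 CPM in shControl, 12 were higher, with a median of 0.63. The cell adhesion molecule NRCAM stood at 5.18 CPM in vehicle, 17.0 in ACY1215, 7.98 in CAY10603, 7.57 in shControl and 5.91 in shHDAC6, a log2 ratio of 1.71 (1.5 to 1.93). L1CAM, a related adhesion molecule of axons, stood at 35.8 CPM in vehicle, 115 in ACY1215, 47.9 in CAY10603, 79.9 in shControl and 66.7 in shHDAC6, a ratio of 1.69 (1.61 to 1.77). Both were highest in ACY1215, L1CAM by a smaller margin over the hairpin libraries than over vehicle. NRP2, a receptor of semaphorins, had 1.56 (1.28 to 1.89), and RBFOX3, a splicing factor of mature neurons, had 1.21 (0.91 to 1.55). REST, the repressor that keeps neuronal genes silent outside neurons, was level at 138 CPM in vehicle and 140 in ACY1215. REST was named after its values were seen, and the 16 listed genes not at 5 CPM were low in both libraries. Of 22 genes of the neurosecretory granule 8 were at 5 CPM, with 5 higher (52.3% of all genes) and 4 at least 2-fold (2.59%), namely VGF, the exocytosis protein SNAP25 at 2.16 (1.87 to 2.49), the convertase inhibitor PCSK1N at 1.83 (1.69 to 1.98) and the convertase PCSK1 at 1.24 (0.95 to 1.56). VGF, SNAP25 and PCSK1 reached 5 CPM in ACY1215 and not in vehicle, so 3 of these 4 passed the floor through the library in which they were high. VGF stood at 2.64 CPM in vehicle, 29.3 in ACY1215, 4.89 in CAY10603, 1.38 in shControl and 2.19 in shHDAC6. The granule proteins CPE and SCG2 were not among them, at -0.53 and -0.52, and among the 5 list members that also reached 5 CPM in shControl 2 were higher, with a median of -0.16.

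Transcripts were higher across the integrin family, the receptors that bind laminin, collagen and fibronectin. All 13 integrin subunits at 5 CPM, of 15 listed, were higher in ACY1215 (52.3% of all genes), 5 of them at least 2-fold (2.59% of all genes). Their median log2 ratio was 0.82, and all 13 also reached 5 CPM in vehicle. The collagen-binding subunit ITGA2 stood at 5.64 CPM in vehicle, 24.5 in ACY1215, 7.75 in CAY10603, 8.55 in shControl and 7.26 in shHDAC6. Its ratio of 2.11 (1.92 to 2.32) was the largest of the 13, ahead of ITGA1, also a collagen-binding subunit, at 1.43 (1.32 to 1.55). The collagen-binding ITGA10 was under 5 CPM in both libraries, at 0.418 CPM in vehicle and 0.305 in ACY1215. The laminin-binding ITGA6 stood at 104 CPM in vehicle, 232 in ACY1215, 120 in CAY10603, 157 in shControl and 115 in shHDAC6, a ratio of 1.16 (1.11 to 1.21). ITGB6 had 1.12 (0.91 to 1.34) and ITGA3 1.08 (1.04 to 1.11), while ITGB1, the beta subunit common to most of these receptors and the family's most abundant member by FPKM, had 4944 CPM in vehicle and 7506 in ACY1215, a ratio of 0.60 (0.59 to 0.61). For 11 of the 13 the ACY1215 library was above all other 4, as it was for 50.7% of the genes higher than in vehicle, and the median was 0.63 with shControl in place of vehicle.

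Matrix ligands and matrix processing genes differed less evenly. Among 12 laminin and basement membrane genes at 5 CPM 9 were higher (52.3% of all genes) and 2 at least 2-fold (2.59%). Ratios ran from -0.17 to 1.62. Of the 12, 2 reached 5 CPM in ACY1215 and not in vehicle. Among the 10 that also reached 5 CPM in shControl 7 were higher. LAMB3, a laminin beta chain, had 1.46 (1.2 to 1.75), whereas LAMA3, a laminin alpha chain, had -0.11 (-0.20 to -0.02). Of 15 collagens 12 were higher (52.3% of all genes) and 4 at least 2-fold (2.59%). The 4 were COL5A1 at 1.75 (1.53 to 1.98), COL6A2 at 1.51 (1.17 to 1.90), COL6A1 at 1.27 (1.15 to 1.41) and COL13A1 at 1.08. COL7A1, the anchoring fibril collagen of epithelia, was lower, with 11.8 CPM in vehicle, 5.41 in ACY1215, 7.90 in CAY10603, 14.6 in shControl and 15.8 in shHDAC6, a ratio of -1.12 (-1.34 to -0.92). Of the 4, COL5A1 and COL6A2 reached 5 CPM in ACY1215 and not in vehicle. The collagen median of 0.21 turned to -0.12 with shControl in place of vehicle. Matricellular and collagen-processing genes were higher in 17 of 21 (52.3% of all genes), 4 of the 21 passing the floor through ACY1215 alone, with a median of 0.56 that fell to 0.13 against shControl. The 5 at least 2-fold (2.59% of all genes) were the protease inhibitor SERPINE2 at 1.62 (1.5 to 1.75), LTBP1 at 1.37, THBS1 at 1.27 (1.22 to 1.32), LOXL2 at 1.21 and CYR61 at 1.14. THBS1 was higher still in shControl (298 CPM, against 216 in ACY1215), so its ratio to shControl was -0.47. PLAUR, the urokinase receptor that focuses plasmin formation on the cell surface, had the largest ratio among the 19 proteolysis genes at 5 CPM. PLAUR was 1 of the 2 among these 19 that reached 5 CPM in ACY1215 and not in vehicle, so its rank rests on the floor. It stood at 3.77 CPM in vehicle, 21.0 in ACY1215, 4.69 in CAY10603, 3.49 in shControl and 3.07 in shHDAC6, a ratio of 2.47 (2.24 to 2.72), and its ligand urokinase, PLAU, had 0.68 (0.65 to 0.70). Fibroblast markers were also higher in ACY1215, as given above.

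In the list of receptor tyrosine kinases and growth factors 22 of 28 genes were higher (52.3% of all genes) and 5 at least 2-fold (2.59%), with a median of 0.37 against vehicle and 0.12 against shControl. Of the 5, 3 encode ligands of the EGF receptor. AREG, amphiregulin, stood at 7.71 CPM in vehicle, 34.2 in ACY1215, 8.31 in CAY10603, 9.06 in shControl and 8.94 in shHDAC6, a ratio of 2.14 (1.98 to 2.32). EREG, epiregulin, stood at 185 CPM in vehicle, 512 in ACY1215, 170 in CAY10603, 261 in shControl and 185 in shHDAC6, a ratio of 1.47 (1.43 to 1.5). ACY1215 was highest for both ligands. HBEGF, a further ligand, had 1.29 (1.11 to 1.48) against vehicle and 0.12 against shControl, and the receptor EGFR, named after its values were seen, had 0.39 (0.31 to 0.48). The other 2 were IGFBP3 at 1.84 (1.73 to 1.94) and the receptor IGF1R at 1.06 (0.85 to 1.27). Among 10 ephrin genes at 5 CPM EPHB2 alone was past 2-fold, at 5.51 CPM in vehicle and 29.1 in ACY1215, with 5.05 to 7.03 CPM in the other 3 libraries and a ratio of 2.39 (2.21 to 2.60). In PI3K signalling 14 of 33 genes at 5 CPM were higher (52.3% of all genes) and 19 lower, with a median of -0.03 and ratios from -0.78 to 2.54. The kinase SGK3, 1 of 2 that were at least 2-fold higher (2.59% of all genes), had 1.63 (1.35 to 1.95) and was under 5 CPM in vehicle. It was at 9.36 CPM in shControl and 12.4 in shHDAC6 against 8.28 in ACY1215, and its ratio to shControl was -0.18. AKAP12, a scaffold for kinase A and C named after its values were seen, had the largest higher ratio (1.91) of the 918 genes with a mean over 200 CPM, with 142 CPM in vehicle, 533 in ACY1215, 197 in CAY10603, 255 in shControl and 159 in shHDAC6.

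Glycolysis genes were mostly higher. Of 23 genes at 5 CPM 22 were higher (52.3% of all genes) and 4 at least 2-fold (2.59%), with a median of 0.62 against 0.02 for all genes. The 4 were the glucose transporter SLC2A3 at 1.57 (1.51 to 1.63), PFKFB3, which makes the activator of phosphofructokinase, at 1.31 (1.26 to 1.37), lactate dehydrogenase LDHA at 1.04 (1.02 to 1.06) and the aldolase ALDOC at 1.02 (0.88 to 1.16). SLC2A3 stood at 63.9 CPM in vehicle, 189 in ACY1215, 85.9 in CAY10603, 95.7 in shControl and 80.8 in shHDAC6. LDHA stood at 838 CPM in vehicle, 1725 in ACY1215, 1192.5 in CAY10603, 1368 in shControl and 1264 in shHDAC6. Vehicle was the lowest library for both, and with shControl in its place the list's median was 0.28. The summed level of the list was 16240 CPM in ACY1215, 12042 in vehicle and 16416 in shControl, so the total was not higher than in the control hairpin library. PFKL, the liver form of phosphofructokinase, was the 1 lower gene, at -0.23. Other hypoxia-responsive genes were higher in 22 of 24 (52.3% of all genes), with a median of 0.45 against vehicle and 0.26 against shControl. The prolyl hydroxylase EGLN3, at 1.82 (1.45 to 2.26), ANGPTL4, at 1.63 (1.39 to 1.90), and adrenomedullin, ADM, at 1.35 (1.12 to 1.60), were past 2-fold, and all 3 reached 5 CPM in ACY1215 and not in vehicle. Respiratory chain subunits went both ways, with 37 of 76 higher, 0 past 2-fold and a median of -0.02.

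**Figure D3:**
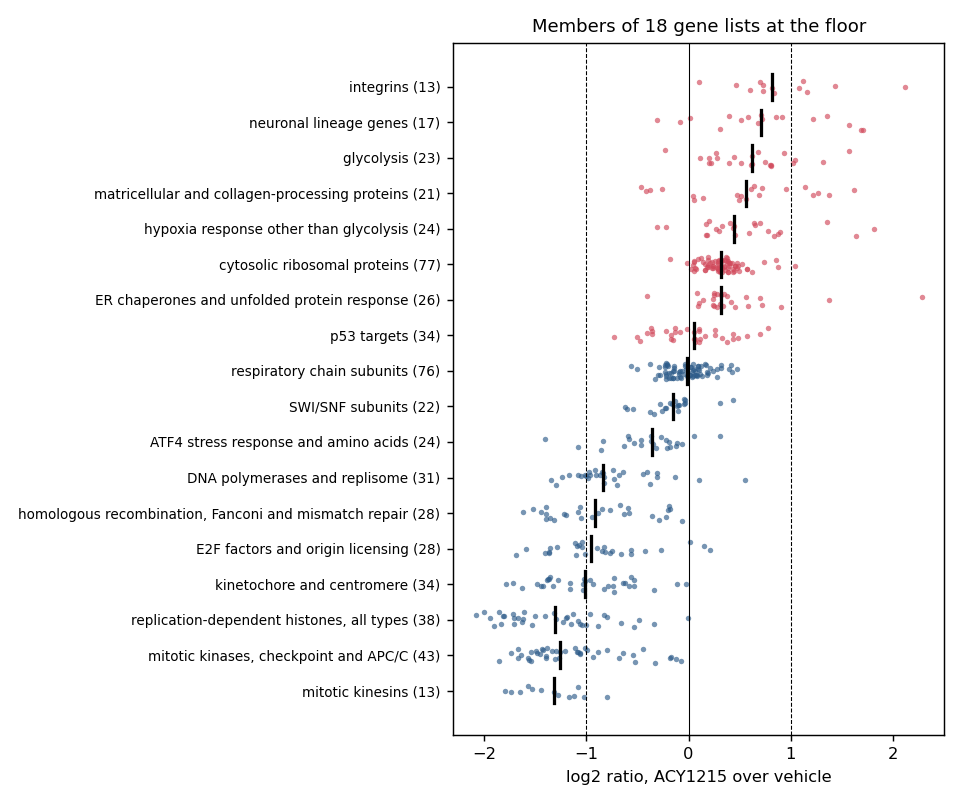
Each point is the log2 ratio of ACY1215 over vehicle for 1 gene at the 5 CPM floor, for 18 gene lists (number of genes in brackets); black bars mark list medians and dashed lines 2-fold. Medians run from -1.32 for the mitotic kinesins to 0.82 for the integrins, with the respiratory chain at -0.02.

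Genes known to rise under broad deacetylase inhibition were mostly higher, with exceptions among their best known members. Of 24 at 5 CPM 21 were higher (52.3% of all genes), with a median of 0.60 (0.24 against shControl). VGF and AREG, 2 of the 24, were past 2-fold (2.59% of all genes). Of the 24 genes 2 reached 5 CPM in ACY1215 and not in vehicle. H1F0, the replacement linker histone that such inhibitors typically raise, was instead at 66.4 CPM in vehicle and 55.7 in ACY1215, a ratio of -0.25 (-0.33 to -0.18). CDKN1A, which encodes the CDK inhibitor p21, stood at 151 CPM in vehicle, 204 in ACY1215, 154 in CAY10603, 337 in shControl and 326 in shHDAC6. Its ratio was 0.43 (0.39 to 0.48) to vehicle and -0.72 to shControl, so the hairpin libraries held more of it than the drug library. The p53 target list, which includes CDKN1A, had 19 of 34 genes higher than vehicle (52.3% of all genes), with a median of 0.06, and a median of -0.51 against shControl.

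Cell division genes were lower in all 3 lists that hold them. All 13 mitotic kinesins were lower, 12 of them at least 2-fold, where 3.1% of all genes were, with a median of -1.32. All 43 mitotic kinase, checkpoint and anaphase-promoting complex genes were lower (29 at least 2-fold, median -1.26), as were all 34 kinetochore and centromere genes (18 at least 2-fold, median -1.01). Of all genes 47.7% were lower. Of the 13, 43 and 34 genes, 1, 3 and 2 reached 5 CPM in vehicle and not in ACY1215. All 13 kinesins and all 43 kinase genes also reached 5 CPM in shControl, as did 33 kinetochore genes, with a median of -1.02. The ACY1215 library was below the other 4 for 13, 40 and 28 of these genes, as it was for 63.6% of the genes lower than in vehicle. The medians were -0.05, -0.02 and 0.03 in CAY10603 against the same vehicle. They were -0.76, -0.72 and -0.53 for ACY1215 against shControl, which itself lay below vehicle. KIF20A, the kinesin of the central spindle, stood at 116 CPM in vehicle, 33.4 in ACY1215, 107 in CAY10603, 82.1 in shControl and 131 in shHDAC6, a ratio of -1.80 (-1.88 to -1.72). AURKB, the kinase of the chromosomal passenger complex, stood at 36.6 CPM in vehicle, 12.3 in ACY1215, 29.6 in CAY10603, 19.5 in shControl and 31.6 in shHDAC6, a ratio of -1.57 (-1.70 to -1.44). The spindle protein TROAP had -1.85 (-2.11 to -1.62), KIF2C, a microtubule depolymerase at centromeres, -1.74 (-1.81 to -1.67), and BIRC5, survivin, -1.48 (-1.56 to -1.40).

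A promoter feature was counted in the 3 cell division lists. The lists gather genes by function, so its share describes the listed genes and does not bear on the effect of ACY1215. The CHR element (cell cycle genes homology region) is the site by which the DREAM complex holds G2 and M phase genes silent, and it was searched as TTTGAA on both strands in RefSeq promoters of build GRCh38.p14, from 250 bases before to 50 after the start. Of the 90 genes in the kinesin, kinase and kinetochore lists 74 had a promoter, and 40 of these (54.1%) held a match, against 9.66% of the 8889 promoters of genes at 5 CPM and 15.4% of all 27305 promoters. The CCAAT box, bound by NF-Y and searched as CCAAT on both strands, was in 68.9% of the 74 and in 37.9% of the genes at 5 CPM. A match is a description of letters and not of a bound site, and the 2 motifs do not overlap in letters. The 6 stretches that follow show where the CHR element sits in genes that were at least 2-fold lower. They are the 80 bases before the start, 5′ to 3′ on the gene's strand, with every match to the element or its reverse complement in capitals. They come from members of the 3 lists and of the cyclin list with large ratios and a match in that stretch. The cyclin list is not part of the 54.1%.
GTSE1, chr22:46296790-46296869, plus strand: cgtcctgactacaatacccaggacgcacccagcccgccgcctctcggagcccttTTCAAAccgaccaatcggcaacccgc
KIF15, chr3:44761714-44761793, plus strand: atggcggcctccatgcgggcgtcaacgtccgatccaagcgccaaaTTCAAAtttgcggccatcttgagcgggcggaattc
CCNB2, chr15:59105066-59105145, plus strand: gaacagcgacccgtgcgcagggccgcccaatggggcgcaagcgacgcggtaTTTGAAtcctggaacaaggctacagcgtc
HMMR, chr5:163460552-163460631, plus strand: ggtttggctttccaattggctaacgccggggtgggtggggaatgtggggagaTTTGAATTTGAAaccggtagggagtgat
CENPA, chr2:26785976-26786055, plus strand: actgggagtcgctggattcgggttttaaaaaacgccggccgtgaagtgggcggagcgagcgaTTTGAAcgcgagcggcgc
KIF4A, chrX:70290024-70290103, plus strand: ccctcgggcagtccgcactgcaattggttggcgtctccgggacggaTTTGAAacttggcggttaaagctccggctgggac
In all 6 the first match began between positions -35 and -18 relative to the start, and HMMR held 2 matches side by side. The log2 ratios of these genes were -1.66 (GTSE1), -1.53 (KIF15), -1.52 (CCNB2), -1.49 (HMMR), -1.48 (CENPA) and -1.44 (KIF4A).

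DNA replication genes were mostly lower in the same library. Of 28 E2F factors and origin licensing genes 25 were lower, 14 at least 2-fold, with a median of -0.95, and of 31 polymerase and replisome genes 29 were lower, 8 at least 2-fold, with a median of -0.83. Against shControl the medians were -0.64 and -0.39. Of all genes 47.7% were lower and 3.1% at least 2-fold lower. Of the 28 licensing genes 4 reached 5 CPM in vehicle and not in ACY1215. Among the 27 that also reached 5 CPM in shControl, 24 were lower than in vehicle, with a median of -0.89. MCM7, a subunit of the replicative helicase, stood at 179 CPM in vehicle, 69.5 in ACY1215, 164 in CAY10603, 141 in shControl and 224 in shHDAC6, a ratio of -1.37 (-1.43 to -1.31). E2F8, a repressor within the E2F family that peaks in S phase, stood at 9.23 CPM in vehicle, 2.84 in ACY1215, 8.99 in CAY10603, 8.07 in shControl and 9.13 in shHDAC6. Its ratio of -1.69 (-1.98 to -1.43) was the largest of the list, and the other 4 libraries lay close together. RRM2, the ribonucleotide reductase subunit that limits nucleotide supply, stood at 112 CPM in vehicle, 41.8 in ACY1215, 113 in CAY10603, 117 in shControl and 140 in shHDAC6, a ratio of -1.42 (-1.5 to -1.35). In the list of nucleotide synthesis genes 8 of 9 were lower, with a median of -0.98. Exceptions were E2F3 at 0.21 and the small polymerase delta subunit POLD4 at 0.55. All 28 homologous recombination, Fanconi and mismatch repair genes were lower, 13 at least 2-fold, with a median of -0.92 (-0.55 against shControl), among them the exonuclease EXO1 at -1.61 (-1.71 to -1.52), FANCD2 at -1.44 (-1.54 to -1.34) and BRCA2 at -1.39 (-1.51 to -1.28). Of these 28 genes 4 reached 5 CPM in vehicle and not in ACY1215, and all 28 also reached 5 CPM in shControl. Of 22 genes of chromosome structure 21 were lower, with the condensin subunit NCAPH at -1.74 (-1.86 to -1.63) and topoisomerase TOP2A at -1.42 (-1.46 to -1.39).

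In the promoters of the replication genes E2F letters were more frequent than CHR letters. The replication lists too gather genes by function, so this does not bear on the effect of ACY1215. E2F sites, by which E2F factors bind S phase genes, were searched as TTTGGCGC, TTTCCCGC, TTTCGCGC and TTTGCCGC on both strands. Of the 68 genes in the licensing, replisome and nucleotide lists 59 had a promoter, and 25 of these (42.4%) held such a site, against 5.88% of the genes at 5 CPM, 3.33% of all promoters and 10.8% of the mitosis lists. The CHR letters were in 5.08% of the 59. The 4 stretches that follow were chosen as before from these lists and show the E2F letters in capitals.
E2F2, chr1:23531234-23531313, minus strand: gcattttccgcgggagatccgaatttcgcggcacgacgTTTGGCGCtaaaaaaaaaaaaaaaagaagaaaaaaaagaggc
MCM7, chr7:100101398-100101477, minus strand: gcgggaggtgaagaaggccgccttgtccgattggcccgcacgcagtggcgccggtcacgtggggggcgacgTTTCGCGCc
CDT1, chr16:88803709-88803788, plus strand: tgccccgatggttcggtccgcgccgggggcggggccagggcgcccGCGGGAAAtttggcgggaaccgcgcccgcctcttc
RFC3, chr13:33818069-33818148, plus strand: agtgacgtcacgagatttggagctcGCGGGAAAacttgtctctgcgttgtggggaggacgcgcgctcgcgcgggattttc
The log2 ratios of these genes were -1.59 (E2F2), -1.37 (MCM7), -1.29 (CDT1) and -1.17 (RFC3). Among the higher lists the glycolysis genes were searched for the hypoxia element as ACGTG or GCGTG, which 68.2% of their 22 promoters held, close to the 64.8% of all genes at 5 CPM.

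**Figure D4:**
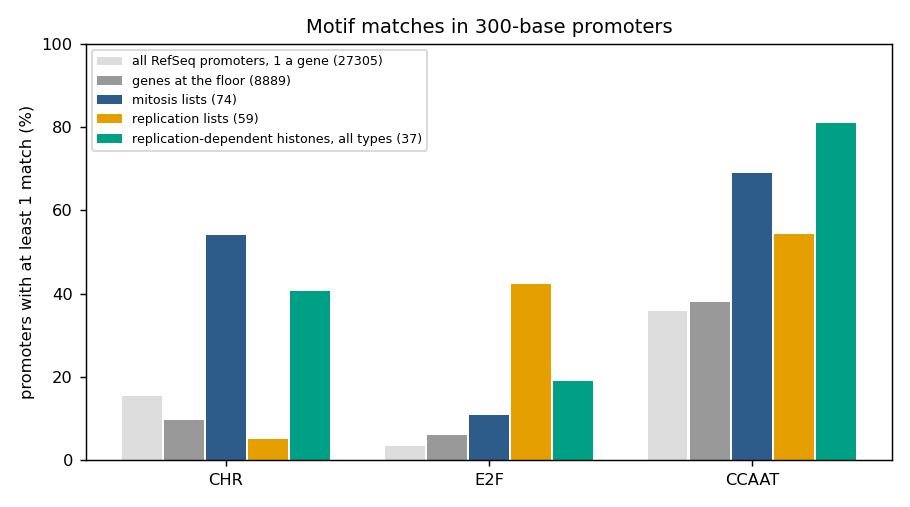
Bars give the percentage of 300-base RefSeq promoters with at least 1 match on either strand, by motif and gene set, with the number of promoters in brackets and the axis starting at 0. CHR matches were in 54.1% of the mitosis lists and 5.08% of the replication lists, and E2F matches in 10.8% and 42.4%.

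Histone genes whose messages are made in S phase were lower without exception. All 38 replication-dependent histone genes at 5 CPM, of 69 in the table, were lower, 29 at least 2-fold, with a median of -1.31, and their summed level was 5714 CPM in vehicle and 2182 in ACY1215. It was 4986 CPM in CAY10603, 3721 in shControl and 6083 in shHDAC6, so shControl lay between vehicle and ACY1215. Of all genes 47.7% were lower and 3.1% at least 2-fold lower. Of the 38 histone genes 2 reached 5 CPM in vehicle and not in ACY1215, and all 38 also reached 5 CPM in shControl. By type the medians were -1.67 for H2B (11 genes), -1.61 for H2A (11), -1.2 for H1 (3), -1.18 for H3 (5) and -1.01 for H4 (8). These messages lack a poly(A) tail and were kept by the total RNA libraries, and single genes are uncertain because reads can be split between near-identical copies. HIST1H2BO stood at 123 CPM in vehicle, 29.0 in ACY1215, 109 in CAY10603, 77.5 in shControl and 138 in shHDAC6, a ratio of -2.08 (-2.17 to -2.00). HIST1H2BJ stood at 263 CPM in vehicle, 68.5 in ACY1215, 204 in CAY10603, 174 in shControl and 299 in shHDAC6, a ratio of -1.94 (-2.00 to -1.89). HIST1H4K had -1.13 to vehicle but 0.18 to shControl, and the H4 genes as a type had -0.13 to shControl. HIST3H2A, the other extreme and named after its values were seen, was at -0.01. Replacement histones, made outside S phase, had smaller ratios, with 9 of 10 lower, 0 past 2-fold and a median of -0.36, from H2AFZ at -0.96 (-1.01 to -0.91) to H3F3C at 0.03. CCAAT was in 81.1% of 37 histone promoters and TTTGAA in 40.5%, and neighbouring histone genes can share a promoter region.

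**Figure D5:**
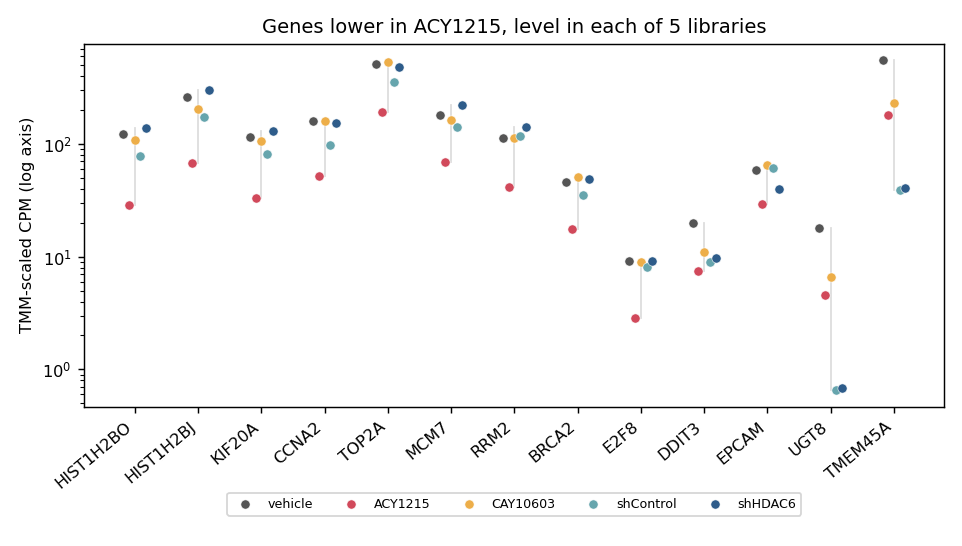
TMM-scaled CPM (log axis) of 13 genes in each of the 5 libraries, 1 point a library. ACY1215 is the lowest library for the histone, mitosis and replication genes, with CCNA2 at 52.3 CPM against 97.4 to 160 CPM, whereas UGT8 and TMEM45A are lowest in the hairpin libraries.

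Cyclins went both ways. The A and B type cyclins of S phase and mitosis were lower, with CCNA2 at -1.60 (-1.66 to -1.54), CCNB2 at -1.52 (-1.60 to -1.44) and CCNB1 at -1.0 (-1.04 to -0.96), as was CCNF at -1.07 (-1.18 to -0.97), together with the kinase CDK1 at -1.29 (-1.34 to -1.24). CCNA2 stood at 159 CPM in vehicle, 52.3 in ACY1215, 160 in CAY10603, 97.4 in shControl and 153 in shHDAC6. The E type cyclins, which act at the entry into S phase, differed in sign, with CCNE2 at -1.25 (-1.44 to -1.07) and CCNE1 at 0.21. The D type cyclins of G1 were higher than in vehicle, with CCND2 at 1.26 (1.23 to 1.30), CCND1 at 0.43 (0.40 to 0.47) and CCND3 at 0.21, but CCND1 and CCND3 were below shControl, at -0.59 and -0.32. CCND2 stood at 176 CPM in vehicle, 422 in ACY1215, 232 in CAY10603, 396 in shControl and 321 in shHDAC6, so vehicle was the low library, and its ratio to shControl was 0.09. CDK inhibitors went both ways, with CDKN2A, which encodes p16 and ARF, at 1.58 (1.33 to 1.85) and CDKN2C, an inhibitor of CDK4 and CDK6, at -1.64 (-1.84 to -1.45). CDKN2A stood at 3.50 CPM in vehicle, 10.5 in ACY1215, 7.18 in CAY10603, 7.55 in shControl and 4.15 in shHDAC6, so of the 2 libraries compared it reached 5 CPM in ACY1215 only.

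Stress genes of the endoplasmic reticulum and of amino acid shortage differed from vehicle in opposite directions, but not from shControl. Of 26 chaperone and unfolded protein response genes 25 were higher (52.3% of all genes), with a median of 0.31 (0.24 against shControl). CLGN, a lectin chaperone best known from testis, stood at 5.97 CPM in vehicle, 29.2 in ACY1215, 6.27 in CAY10603, 4.13 in shControl and 2.97 in shHDAC6, a ratio of 2.28 (2.10 to 2.48). SDF2L1 had 1.37 (1.19 to 1.56) and the central chaperone HSPA5 0.72 (0.69 to 0.75), while the transcription factor XBP1 had -0.41. Targets of ATF4, the factor of the amino acid response, were lower in 22 of 24 (47.7% of all genes). Their median was -0.35, and it turned to 0.08 with shControl in place of vehicle. In CAY10603 against the same vehicle the median of the list was -0.36. The ACY1215 library was below the other 4 for 6 of the 24 genes, where it was for 63.6% of the genes lower than in vehicle. DDIT3, which encodes CHOP, stood at 20.02 CPM in vehicle, 7.54 in ACY1215, 11.1 in CAY10603, 9.02 in shControl and 9.72 in shHDAC6, a ratio of -1.40 (-1.58 to -1.24). Vehicle was the high library for DDIT3, and CHAC1, at -1.08 (-1.34 to -0.84), had 0.63 to shControl. Cytosolic ribosomal protein genes were higher in 75 of 77 (52.3% of all genes), with a median of 0.32, 1 gene (RPS16) at least 2-fold higher (2.59% of all genes) and a median of 0.31 against shControl.

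Iron and redox genes held single large differences. STEAP3, a ferrireductase of endosomes, stood at 2.73 CPM in vehicle, 15.1 in ACY1215, 3.23 in CAY10603, 7.77 in shControl and 3.87 in shHDAC6, a ratio of 2.45 (2.19 to 2.75). STEAP3 reached 5 CPM in ACY1215 and not in vehicle. CYBRD1, a ferrireductase of the plasma membrane, stood at 10.8 CPM in vehicle, 32.0 in ACY1215, 11.2 in CAY10603, 8.60 in shControl and 9.18 in shHDAC6, a ratio of 1.56 (1.42 to 1.71). Both were highest in ACY1215, and 11 of 14 iron genes were higher (52.3% of all genes), with ferritin heavy chain FTH1 at 0.81 (0.78 to 0.83) and light chain FTL at -0.01. Of 25 NRF2 targets and glutathione genes 17 were higher, where 52.3% of all genes were, with a median of 0.20. Heme oxygenase HMOX1 had 1.15 (0.98 to 1.34), the quinone reductase NQO1 0.69 (0.68 to 0.70), the cystine transporter SLC7A11 -0.84 (-0.96 to -0.72) and KEAP1, the adaptor that destroys NRF2, -0.94 (-1.08 to -0.81). SLC7A11 is also an ATF4 target, and it was 33.8 CPM in vehicle, 18.9 in ACY1215 and 11.4 in both hairpin libraries, so its order again depended on the control.

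For some of the lower genes vehicle was the library that stood apart. In 62 of the 342 lower genes and 3 of the 286 higher genes vehicle was more than 2 times higher than both hairpin libraries. The 342 were chosen by a ratio to vehicle, which itself favours a high place for vehicle. Clone or LOC rows made up 35 of the 342 and 7 of the 286. Shares over all genes were not counted. TMEM45A, a membrane protein, stood at 551 CPM in vehicle, 179 in ACY1215, 233 in CAY10603, 39.4 in shControl and 41.0 in shHDAC6. The imprinted noncoding RNA KCNQ1OT1 stood at 725 CPM in vehicle, 274 in ACY1215, 376 in CAY10603, 92.9 in shControl and 88.5 in shHDAC6. UGT8, the galactosyltransferase of myelin lipid synthesis, stood at 17.8 CPM in vehicle, 4.59 in ACY1215, 6.64 in CAY10603, 0.656 in shControl and 0.686 in shHDAC6. All 3 were lower in ACY1215 than in vehicle, with UGT8 at -1.95 (-2.17 to -1.75), and higher in it than in shControl, with UGT8 at 2.74. TMEM45A and KCNQ1OT1 were named after their values were seen. Without the 62 and 3 such genes on either side, 280 genes were at least 2-fold lower and 283 at least 2-fold higher.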

How the data were processed

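RNA-seq of 5 TOV21G libraries (1 per treatment) was used. The authors deposited 1 table with expected counts per gene, whole numbers headed count per the file headers, and FPKM values with 2 decimals; RSEM 1.2.3, edgeR and hg19 are named in the submitters' processing notes, with no role given. The sources used here name neither the aligner nor the annotation or strandedness, so antisense or overlapping genes cannot be told apart, nor reads of near-identical copies. Of the table's rows 2 without a symbol were left out, and 27 symbols turned into dates were not named.

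TMM factors over 5 libraries (edgeR 4.0.16, R 4.3.3) and a prior count of 2 gave log2 ratios, for genes at 5 CPM in either library. No test is possible with 1 library a side; the calculation was tested on simulated counts. Genes were matched to RefSeq promoters by Entrez identifier, for sets with at least 80% matched. Named genes were the 15 highest and 15 lowest ratios, the HDAC, cyclin, CDK inhibitor and H2B genes, and per list up to 8 with the largest ratios, up to 2 of opposite sign and the 2 with the highest FPKM; some of these genes are not reported here. Members, lists and rule were chosen with earlier results of these data known. Alternatives included DESeq2 1.42.0 size factors.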

Additional observations from a re-analysis of the deposited data

How the results depend on the processing

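No paired analysis was possible because each group has 1 library. The number of genes past 2-fold, 286 higher and 342 lower, stayed within 1.5 times under 7 alternatives: TMM from the 2 libraries, DESeq2 size factors, total counts, upper quartile, either prior count (0.5 or 10) and the authors' FPKM. The floor moved them: to 608 and 618 at 1 CPM, 115 and 218 at 20 CPM, and 1340 and 3573 without one. The lower set held 162 genes when shControl replaced vehicle and 207 with the mean of both; the higher set held 173 among genes also at 5 CPM in shControl, an alternative chosen after seeing the data.

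None of the 6 main lists turned under these alternatives. Medians in the order mitotic kinases, replisome, histones, glycolysis, integrins and neuronal lineage were -1.35, -0.95, -1.43, 0.50, 0.70 and 0.59 with total counts, and -0.72, -0.39, -0.81, 0.28, 0.63 and 0.36 when shControl replaced vehicle. With the mean of both controls they were -1.04 (kinases), -0.62 (replisome), -1.09 (histones), 0.45 (glycolysis) and 0.38 (neuronal). FPKM gave -1.36 (kinases), -1.41 (histones), 0.51 (glycolysis), 0.70 (integrins) and 0.58 (neuronal). A floor of 20 CPM gave -1.11 (kinases) and -1.40 (histones), no floor gave -1.19 (histones) and 0.58 (neuronal), and the shControl floor gave 0.63 (neuronal).

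When shControl replaced vehicle 5 of 62 list medians turned: collagens (-0.12), ATF4 targets (0.084), microtubule-associated genes (-0.021), ephrins (-0.15, and -0.024 with the mean of both controls) and epithelial genes (-0.18). So did 7 of the genes given here with a ratio of at least 2-fold: CHAC1 (0.63), HIST1H4K (0.18), KCNQ1OT1 (1.56), SGK3 (-0.18), THBS1 (-0.47), TMEM45A (2.18) and UGT8 (2.74). A further 11 given with smaller ratios also changed sign, among them CDKN1A (-0.72), SLC7A11 (0.73), CCND1 (-0.59) and TUBB3 (-0.23). C/D box RNAs turned at a floor of 20 CPM (0.041) and in FPKM (0.031), and neurosecretory genes at the shControl floor (-0.16). The cause of these turns was not tested.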

Other observations

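Further genes outside the comparisons above, given as log2 ratios of ACY1215 over vehicle: the nuclear long noncoding RNAs MALAT1 (1.2, counting interval 1.19 to 1.21) and NEAT1 (1.12, 1.08 to 1.16) were higher in ACY1215, while the imprinted RNA H19 was lower (-1.86, -2.22 to -1.55). MALAT1 stood at 3578 CPM in vehicle, 8212 in ACY1215, 3484 in CAY10603, 5570.5 in shControl and 4102 in shHDAC6. NEAT1 stood at 178 CPM in vehicle, 387 in ACY1215, 138 in CAY10603, 237 in shControl and 318 in shHDAC6. H19 reached 5 CPM in vehicle but stood at 1.89 CPM in ACY1215, and at 4.47 to 5.43 CPM in the other 3 libraries. The signal recognition particle RNA row, Metazoa_SRP, took 2.75% of the counts in ACY1215 and 1.37% in vehicle.

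Of 16 epithelial genes at 5 CPM 13 were higher (52.3% of all genes), with a median of 0.29 that turned to -0.18 with shControl in place of vehicle. EPCAM, an adhesion molecule of epithelia, had the lowest ratio of the list and stood at 58.5 CPM in vehicle, 29.4 in ACY1215, 65.3 in CAY10603, 61.0 in shControl and 39.8 in shHDAC6, a ratio of -0.99 (-1.08 to -0.90). The junction genes TJP3 (1.16, 0.99 to 1.34) and CLDN1 (1.00, 0.97 to 1.02) were higher, as was the mesenchymal and stem cell adhesion receptor CD44 (1.14, 1.08 to 1.21). Interferon-induced IFIT2 (-1.02, -1.17 to -0.87) and IFIT3 (-0.99, -1.16 to -0.83) were lower, while IFI6 (1.37, 1.21 to 1.54) and the class I genes HLA-B (0.72, 0.67 to 0.77) and B2M (0.43, 0.40 to 0.45) were higher. In the BCL2 and caspase list 17 of 28 genes at 5 CPM were higher (52.3% of all genes), with a median of 0.10. BIRC5 (given above) and CASP9 (-1.04, -1.17 to -0.91), the initiator caspase of the mitochondrial pathway, were the 2 at least 2-fold lower (3.1% of all genes). The pore-forming BAK1 was the largest higher ratio among the 28 (0.83, 0.68 to 0.98). PHF19, an accessory factor of Polycomb complex 2, had -1.19 (-1.31 to -1.07), against -0.45 (-0.53 to -0.37) for its catalytic subunit EZH2. Cholesterol synthesis genes were divided, with 12 of 23 higher and a median of 0.05. The lysosomal lipase LIPA stood at 44.0 CPM in vehicle, 94.3 in ACY1215, 46.8 in CAY10603, 46.1 in shControl and 46.1 in shHDAC6, a ratio of 1.10 (1.02 to 1.17). It was the only 1 of 39 lysosome genes at 2-fold, near the 2.59% of all genes that were at least 2-fold higher. Of the 39 genes 28 were higher (52.3% of all genes), with a median of 0.27 against vehicle and 0.05 against shControl.

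ARID1A, the SWI/SNF subunit named in the title, stood at 9.27 CPM in vehicle, 9.03 in ACY1215, 10.4 in CAY10603, 9.43 in shControl and 11.8 in shHDAC6, a ratio of -0.04 (-0.23 to 0.15); it was named after its values were seen. Of 22 SWI/SNF genes 20 were lower (47.7% of all genes), 0 at least 2-fold (3.1% of all genes), with a median of -0.15.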
